A study of Danio rerio with 8 samples.

Results

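The genes described here are the cell adhesion and junction genes of the zebrafish gastrula: cadherins and protocadherins, catenins, claudins and other tight junction genes, desmosome genes, integrins and epcam. They were taken by gene symbol from the probe sets of an Affymetrix zebrafish array that carry exactly 1 gene symbol, with the probe set of highest mean over all arrays standing for each gene. This gave 62 genes, measured by 78 probe sets, of 8793 genes on the array. Of the 62 genes, 35 passed the filter on low signal and were tested, as were 6192 genes in all. By type, 29 were tight junction genes (24 of them claudins), 15 cadherins or protocadherins, 7 catenins by name, 5 desmosome genes and 5 integrins, with epcam by itself.

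In this series 3 subtypes of embryos injected with a morpholino against prmt6 (MO) were set against embryos injected with its control morpholino (cMO). The arrays were 3 of severe MO embryos, 1 of mild MO embryos, 1 of normal-looking MO embryos and 3 of cMO embryos (called control here), all whole embryos at 6 hours post fertilization. Each embryo had received 3 nl of 0.3 mM morpholino at the 1-cell or 2-cell stage, so every array comes from injected embryos, and no uninjected embryo was analysed here. A morpholino is an antisense oligonucleotide that blocks splicing or translation of its target RNA, here that of prmt6, a histone arginine methyltransferase. The MO subtypes were sorted by the embryos' shape, and neither the strain nor the number of embryos per array is given in the sources used here. The titles call the replicates biological without saying whether they came from separate clutches, so the spread behind each p-value may be partly technical.

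Animal cells hold together through several kinds of junction. At adherens junctions, classical cadherins bind across the gap between cells and are tied to actin by catenins. At desmosomes, desmosomal cadherins are tied to keratin filaments by plakoglobin, plakophilins and desmoplakin, while claudins and occludin seal tight junctions with the help of zonula occludens scaffolds. Integrins bind cells to the matrix. At this stage the embryo consists of deep cells beneath an outer epithelium, the enveloping layer, and both spread over the yolk by epiboly, a movement for which E-cadherin is required.

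All values are log2 signals, and differences are log2 differences between groups from a limma fit over all arrays. A difference was called where its p-value, adjusted by the Benjamini-Hochberg method over all tested probe sets, was under 0.05. Array medians lay between log2 6.471 and 6.798, and values under log2 5.10, the 95th percentile of 17 negative control probe sets, were taken as not above background. The prmt6 probe set itself read 11.27 ± 0.16 in severe and 9.70 ± 0.16 in control embryos (SD, n = 3 each). It read 11.13 on the mild and 11.22 on the normal array, so all MO subtypes lay above control. A morpholino need not lower its target's RNA. Across tested probe sets, Spearman's correlation of severe array 3 was 0.983 with the mild array, and 0.959 and 0.966 with severe arrays 1 and 2. Control array 3 correlated at 0.971 with each of the other controls, which correlated at 0.993 with each other. Of cell types not yet formed at this stage, 5 of 5 blood markers were under background on all severe, mild and normal arrays and 2 of 5 on all control arrays, and 3 of 4 muscle markers were under it on all arrays of every group.

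In severe embryos all 5 desmosome genes on the list fell, while E-cadherin, epcam and most catenins did not pass the threshold. The list holds no desmosomal cadherin gene. Of 35 tested adhesion genes, 13 fell and 5 rose against control. The 13 include cldng, whose probe sets disagree and which is given no direction below. Among all 6192 tested genes, 16.7% fell and 23.8% rose, beside 37.1% and 14.3% of the adhesion genes. The median difference of the adhesion genes was -0.14, beside 0.14 over all tested genes. All 3 severe arrays lay below all 3 controls for 15 of the 35 genes, and above them for 7, shares of 42.9% and 20%. For all tested genes those shares were 22.7% and 32.6%. With each array scaled instead on its 18 hybridisation control probe sets, the medians were -0.43 for adhesion genes and -0.14 for all genes. The adhesion counts under this scaling were 14 lower and 1 higher. Those of all tested genes were 1261 lower and 372 higher, in place of 1033 and 1476. With replicates 1 and 2 of severe and control alone, 14 adhesion genes were lower and 5 higher. The count of higher genes was 3 without control array 1 or without control array 2. The shares of all tested genes in these 3 fits are not given here, so these counts are not read as a result about the adhesion genes. In whole embryos, fewer cells of a type and less RNA per cell cannot be told apart.

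**Figure D1:**
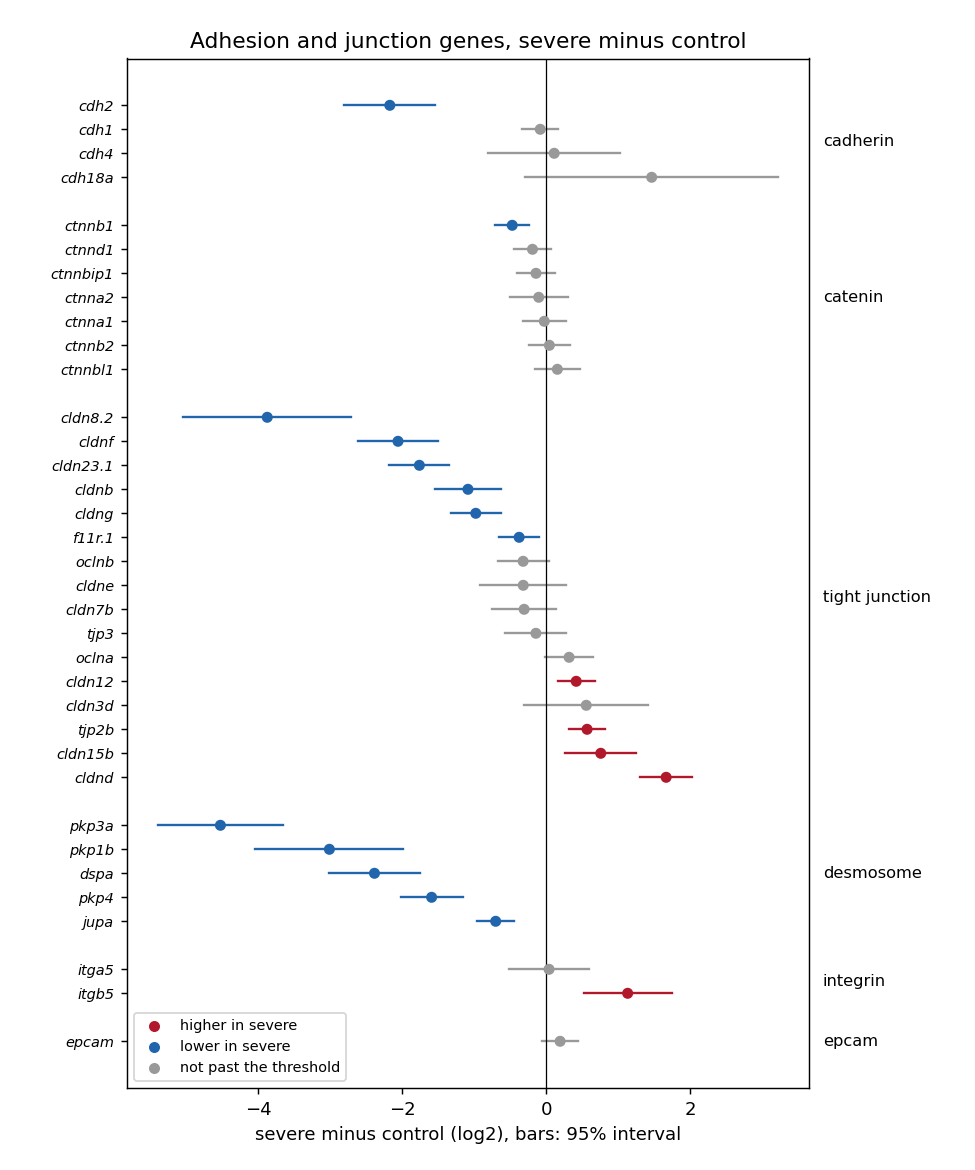
Difference between severe and control embryos (log2, x axis) for the 35 tested adhesion and junction genes, grouped by type; points are fitted differences and bars their 95% intervals from limma, with colour for genes past the threshold. All 5 desmosome genes lie left of 0, from -4.52 for pkp3a to -0.70 for jupa, while the tight junction genes spread from -3.87 to 1.67.

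Desmosome genes had the lowest median of the types, -2.39 over 5 genes. The deepest fall was that of pkp3a, which encodes plakophilin 3, an armadillo protein of the desmosomal plaque. It read 4.66, 6.08 and 4.94 on the severe arrays, against 9.57, 9.49 and 10.19 on the control arrays. Only severe array 2 was above background, so the size of this fall is uncertain, and the groups did not overlap. The fitted difference was -4.52 (SE 0.38, limma adjusted p = 9.18e-05), or 23-fold lower. A second plakophilin gene, pkp1b, read 4.29, 5.95 and 4.49 in severe and 7.70, 7.61 and 8.46 in control embryos. Its fitted difference was -3.01 (SE 0.45, limma adjusted p = 0.00114), but severe array 2 alone was above background and the severe mean of 4.91 lay under it, so no fold is given.

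Desmoplakin is the protein that anchors keratin filaments to the desmosome, and its gene dspa read 6.81, 7.62 and 6.87 in severe embryos. The control arrays read 9.16, 9.42 and 9.87, so dspa was 5.22-fold lower (log2 -2.39, SE 0.28, limma adjusted p = 0.000348). This probe set was well above background throughout. A second dspa probe set was under background on every array and was not tested, nor was dspa once its probe sets were averaged. The gene pkp4 encodes an armadillo protein found at both desmosomes and adherens junctions. It read 9.24, 9.34 and 8.68 in severe and 10.57, 10.66 and 10.80 in control embryos, a 3.01-fold fall (limma adjusted p = 0.00037). Plakoglobin, encoded by jupa, also serves both junctions and moved least. Its values of 10.95, 10.95 and 10.81 in severe embryos all lay below the control values of 11.63, 11.51 and 11.68 (log2 -0.70, SE 0.12, limma adjusted p = 0.00173). The falls of these 5 genes passed in every alternative in which each was tested.

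Markers of the enveloping layer moved with the desmosome genes. Of 15 measured markers on that list, 13 were tested, and 10 fell and 1 rose in severe embryos. Of all tested genes, 16.7% fell and 23.8% rose. The falls included krt4, krt5, anxa1a and capn9, and the rise was in agr2. One of the 15, cldne, is itself an adhesion gene. Without it, the summed linear signal of the list was 6020 to 12206 on the severe arrays, 12699 on the mild array, 47168 on the normal array and 46063 to 64209 on the control arrays. Of the 15 markers, 4 were under background on all severe arrays, 5 on the mild array, 1 on the normal array and 1 on all control arrays. Markers of the yolk syncytial layer, the layer beneath the cells, moved too: of 12 measured, 10 were tested, and 7 fell and 1 rose (mxtx2) in severe embryos. Their summed linear signal was 2163 to 4269 on severe, 5976 on the mild, 12675 on the normal and 9969 to 18630 on control arrays. Under background were 3 of the 12 on all severe arrays, 2 on the mild array, 1 on the normal array and 0 on all control arrays. Of these 12 markers, fn1a is also on the matrix ligand list. The part of enveloping layer and yolk syncytial layer RNA in the falls of the desmosome genes was not tested.

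**Figure D2:**
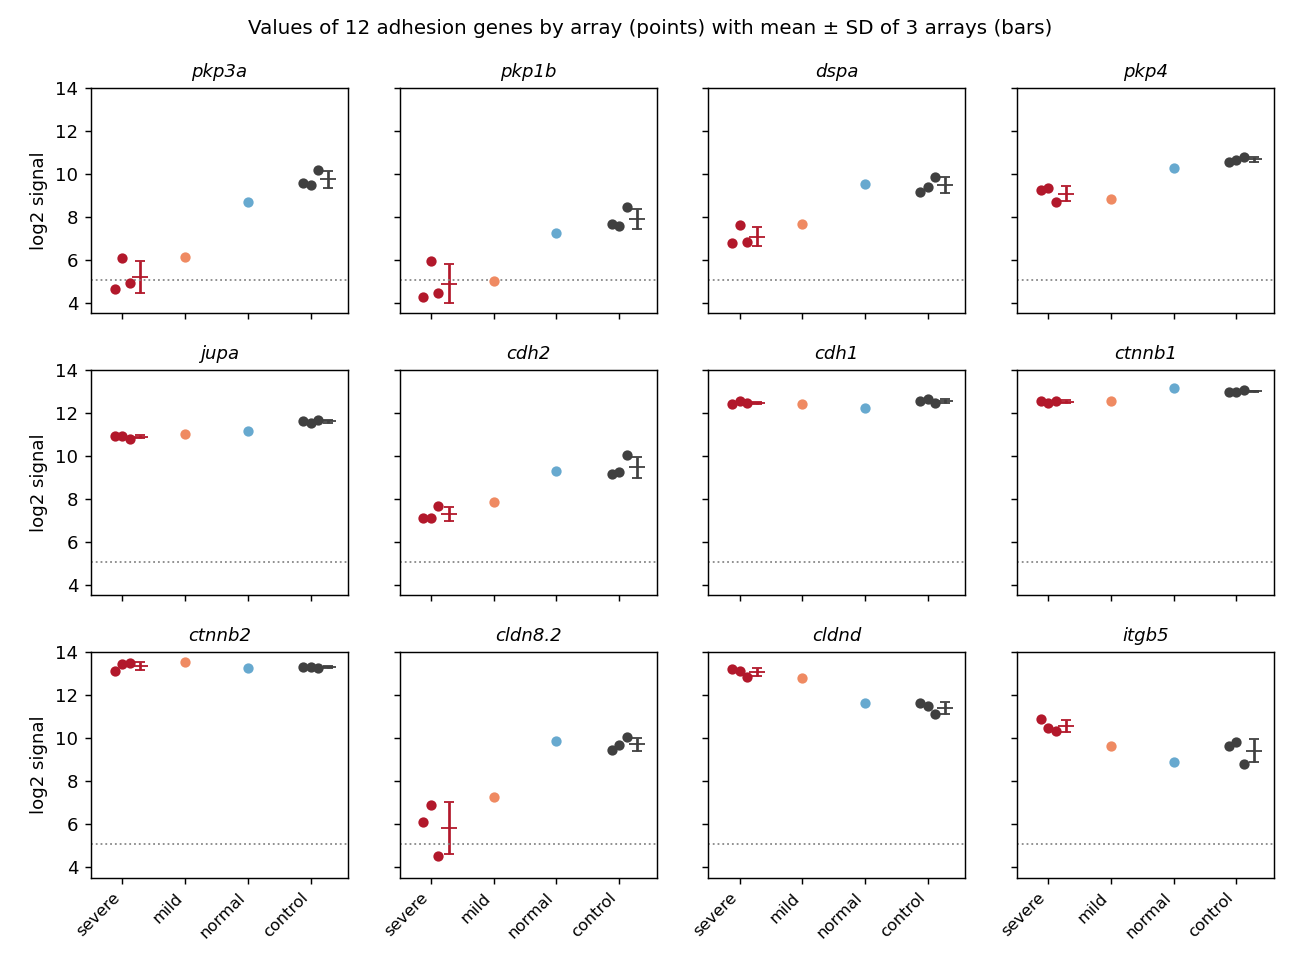
Log2 signal (y axis) of 12 adhesion genes on each array, by group (x axis); points are arrays, bars the mean ± SD of the 3 severe and the 3 control arrays, and the dotted line is the background at log2 5.10. The 5 desmosome genes, cdh2, cldn8.2 and ctnnb1 have all severe arrays below all controls, cdh1 and ctnnb2 overlap between these groups, and cldnd and itgb5 have all severe arrays above all controls.

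Of the 4 tested cadherins, cdh2 alone passed the threshold, where 16.7% of all tested genes fell and 23.8% rose. The gene cdh2 encodes N-cadherin, the classical cadherin of neural and mesodermal cells. It read 7.12, 7.15 and 7.68 on the severe arrays, against 9.17, 9.24 and 10.05 on the control arrays, with no overlap. The difference was -2.17 (SE 0.28, limma adjusted p = 0.000528), or 4.51-fold lower. E-cadherin, encoded by cdh1, was nearly level across the same arrays. Its severe values were 12.42, 12.54 and 12.45, its control values 12.55, 12.64 and 12.47, and the difference of -0.08 had a 95% interval from -0.33 to 0.17 (limma adjusted p = 0.582). The 2 dimmer genes had wide intervals. For cdh4, which encodes R-cadherin, the difference was 0.11 (95% interval -0.80 to 1.03). For cdh18a it was 1.46 (95% interval -0.29 to 3.22), and control array 3 read 3.25 beside 6.72 and 6.38 on the other controls.

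Among mesoderm and neural markers, which include cell types known to carry N-cadherin, values also moved. In severe embryos 4 of 5 tested mesoderm markers fell and none rose, while of 4 tested ectoderm and neural markers 2 rose and 2 fell. The shares over all tested genes were 16.7% lower and 23.8% higher. Summed signals of the 6 measured mesoderm markers were 4452 to 8299 on severe, 11374 on the mild, 14445 on the normal and 13239 to 15454 on control arrays. Those of the 6 measured ectoderm and neural markers were 8162 to 8373 on severe, 8306 on the mild, 11618 on the normal and 11290 to 12401 on control arrays. The number of mesoderm markers under background on all arrays of a group was 1 in severe, 1 in mild, 0 in normal and 1 in control embryos. No ectoderm and neural marker was under background on all arrays of a group. The part of these cell types in the fall of cdh2 was not tested.

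One catenin gene fell and the other 6 did not pass. Of all 6192 tested genes 3683 did not pass, and 16.7% fell and 23.8% rose. The catenin counts are therefore not read as a result about the catenins. Zebrafish have a pair of beta-catenin genes, and their products act both at adherens junctions and as effectors of Wnt signalling. The first, ctnnb1, read 12.56, 12.47 and 12.57 in severe and 12.97, 12.99 and 13.05 in control embryos. It was 1.39-fold lower (log2 -0.47, SE 0.11, limma adjusted p = 0.00774), a call lost under quantile normalization and under median centring (limma adjusted p from 0.00285 to 0.0997 over all alternatives). Its other tested probe set read -0.90 (limma adjusted p = 0.00271). For ctnnb2, which is also supplied by the mother, severe arrays read 13.14, 13.43 and 13.47 and control arrays 13.32, 13.31 and 13.27. The groups overlapped, and the difference of 0.04 had a 95% interval from -0.24 to 0.33. No test compared the paralogs with each other.

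The alpha-catenin gene ctnna1 links cadherin complexes to actin, and read 11.66, 11.93 and 12.04 in severe and 11.86, 11.84 and 12.01 in control embryos (difference -0.03, 95% interval -0.33 to 0.27). For ctnna2, the neural alpha-catenin, the difference was -0.10. The gene ctnnd1 encodes p120-catenin, which holds cadherins at the membrane. Its severe values of 11.30, 11.10 and 11.26 all lay below its control values of 11.45, 11.44 and 11.35, but the difference of -0.19 did not pass (95% interval -0.45 to 0.07, limma adjusted p = 0.221). A further pair is caught by its symbols without being junction proteins. They are ctnnbip1, an inhibitor of beta-catenin in Wnt signalling (difference -0.14), and ctnnbl1, a splicing-associated protein (0.15), and neither passed.

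Tight junction genes went both ways. Of 16 tested, 6 fell and 4 rose in severe embryos, and the median was -0.31. By the same fit, 16.7% of all tested genes fell and 23.8% rose. The falls were in cldn8.2, cldnf, cldn23.1, cldnb, f11r.1 and the probe set that stands for cldng, whose probe sets disagree, and the rises in cldnd, cldn15b, tjp2b and cldn12. Claudins are the membrane proteins that set how tight and how ion-selective the seal is, so each gene is given here with its own values.

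The deepest claudin fall was that of cldn8.2, which read 6.09, 6.91 and 4.52 on severe and 9.43, 9.67 and 10.04 on control arrays. Severe array 3 was under background, and the fitted fall was 14.7-fold (log2 -3.87, SE 0.52, limma adjusted p = 0.000618). For cldnf, severe arrays read 5.89, 6.39 and 6.42 and control arrays 8.29, 8.09 and 8.49, a 4.17-fold fall (limma adjusted p = 0.000378). The groups stood apart in both genes. For cldn23.1, values of 9.36, 9.75 and 9.23 in severe embryos stood against 10.99, 11.13 and 11.51 in control embryos, a difference of -1.76 (SE 0.18, limma adjusted p = 0.000218). The gene cldnb fell by 1.09 on the log2 scale (9.59 ± 0.37 in severe and 10.68 ± 0.23 in control embryos, SD, n = 3 each, limma adjusted p = 0.00333). These 4 falls passed in every alternative in which each was tested.

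The probe sets of cldng disagreed in direction, and this gene was singled out after its values were seen. The probe set that stands for it read 10.91, 10.75 and 11.27 in severe and 11.85, 11.94 and 12.09 in control embryos, a difference of -0.98 (limma adjusted p = 0.00138). A pair of others read -1.18 and -1.30 and passed as well (limma adjusted p = 0.002 and 0.0011). The fourth read 12.83, 12.68 and 12.22 in severe, against 10.39, 10.34 and 9.01 in control embryos, a rise of 2.66 (SE 0.34, limma adjusted p = 0.000523). On the mild array the same probe set was 2.08 above the control mean, and the other 3 were below it. When the mean of all 4 was taken, the difference was -0.20 and did not pass (limma adjusted p = 0.319), so no direction is given for cldng.

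**Figure D3:**
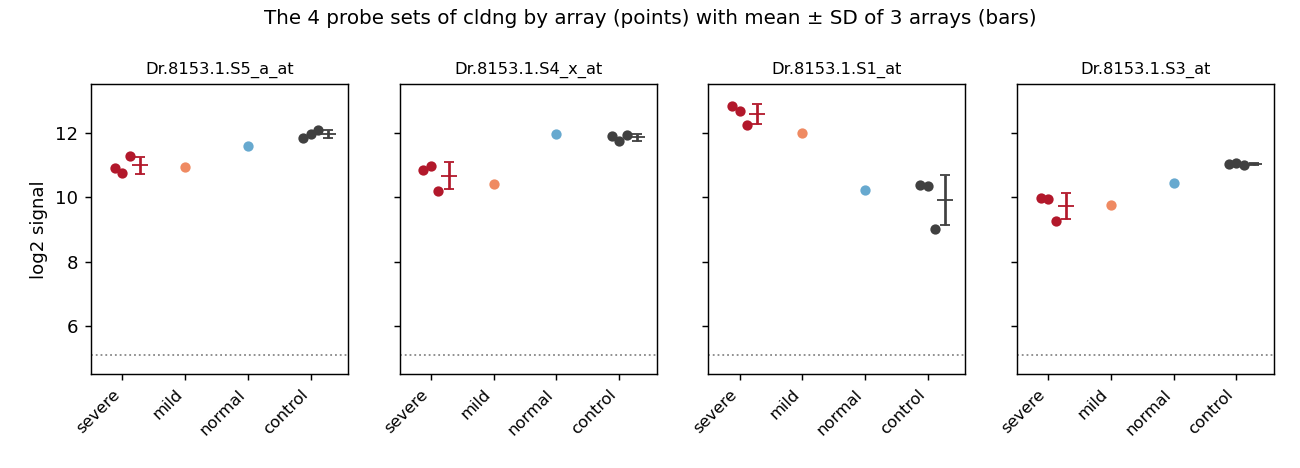
Log2 signal (y axis) of the 4 probe sets annotated to cldng, by group (x axis); points are arrays, bars the mean ± SD of 3 arrays, and the dotted line is the background at log2 5.10. In 3 panels the severe and mild arrays lie below the controls, and in the third panel they lie above them.

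The largest rise was that of cldnd, a claudin known from the egg. It read 13.23, 13.12 and 12.84 on the severe arrays, against 11.61, 11.47 and 11.11 on the control arrays, with no overlap. It was 3.17-fold higher (log2 1.67, SE 0.16, limma adjusted p = 0.000152), and passed in all 16 alternatives. Other egg transcripts rose with it: of 8 tested on a list of maternal markers, cldnd left out, 7 rose and none fell. Over all tested genes, 23.8% rose and 16.7% fell. The summed linear signal of these 8 markers was 34538 to 38374 on severe, 28387 on the mild, 20196 on the normal and 17116 to 20781 on control arrays. None was under background on all arrays of a group, and the part of retained maternal RNA in the rise of cldnd was not tested.

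The other rises among tight junction genes were small. The scaffold zonula occludens 2, encoded by tjp2b, read 10.85, 10.82 and 10.80 in severe and 10.27, 10.26 and 10.24 in control embryos. These close replicates gave a 1.48-fold rise (log2 0.57, limma adjusted p = 0.00433), lost when arrays were scaled on hybridisation controls and when the gene's probe sets were averaged (its second probe set differed by 0.54, with limma adjusted p = 0.251). For cldn15b, 7.92, 7.61 and 7.73 in severe stood against values between 6.90 and 7.08 in control embryos, a rise of 0.76 (limma adjusted p = 0.0233) lost in 4 of 15 alternatives. For cldn12, 11.16, 11.32 and 11.16 in severe stood against 10.82, 10.75 and 10.82 in control embryos, a rise of 0.42 (limma adjusted p = 0.019) lost in 7 of 16 alternatives. The second cldn12 probe set differed by 0.32 without passing (limma adjusted p = 0.403).

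The other 6 tested tight junction genes passed in neither direction. The gene cldne encodes a claudin of that layer, and read 7.18, 7.34 and 7.49 in severe and 7.36, 7.47 and 8.13 in control embryos (difference -0.32, 95% interval -0.92 to 0.28). Occludin, encoded by oclna, read 13.11, 13.12 and 13.56 in severe and 13.03, 12.96 and 12.85 in control embryos. Its groups did not overlap, yet the difference of 0.32 did not pass (limma adjusted p = 0.118), and the paralog oclnb stood at -0.32 (limma adjusted p = 0.138). The scaffold gene tjp3, for zonula occludens 3, differed by -0.14 (95% interval -0.57 to 0.28). The gene cldn7b differed by -0.31 without passing, while its second probe set was called at -0.73 (limma adjusted p = 0.0374). The most variable was cldn3d, at 8.10, 8.65 and 9.78 in severe and 7.98, 8.28 and 8.61 in control embryos (limma adjusted p = 0.279).

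A junctional adhesion molecule, f11r.1, fell by 0.38 on the log2 scale, with 12.41, 12.43 and 12.17 in severe and 12.76, 12.79 and 12.58 in control embryos. The groups did not overlap, but the call (limma adjusted p = 0.0389) was lost in 9 of 16 alternatives (limma adjusted p from 0.0106 to 0.312). The epithelial cell adhesion molecule gene epcam, needed for epiboly of the enveloping layer in zebrafish, read 13.25, 13.21 and 13.28 in severe and 13.10, 13.13 and 12.93 in control embryos. The severe values all lay above the controls, and the difference of 0.19 did not pass (95% interval -0.06 to 0.45, limma adjusted p = 0.205).

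Of 5 integrin genes, 2 were tested. The subunit gene itgb5, whose product pairs with the alpha-v subunit in a vitronectin receptor, read 10.87, 10.48 and 10.32 in severe and 9.64, 9.84 and 8.79 in control embryos. It was 2.19-fold higher (log2 1.13, SE 0.27, limma adjusted p = 0.0102), with no overlap, and lost the call when arrays were scaled on hybridisation controls (limma adjusted p = 0.115). The fibronectin receptor subunit gene itga5 read 7.35, 7.02 and 6.86 in severe and 6.96, 7.21 and 6.94 in control embryos. These overlapped, and the difference of 0.04 had a 95% interval from -0.52 to 0.60.

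**Figure D4:**
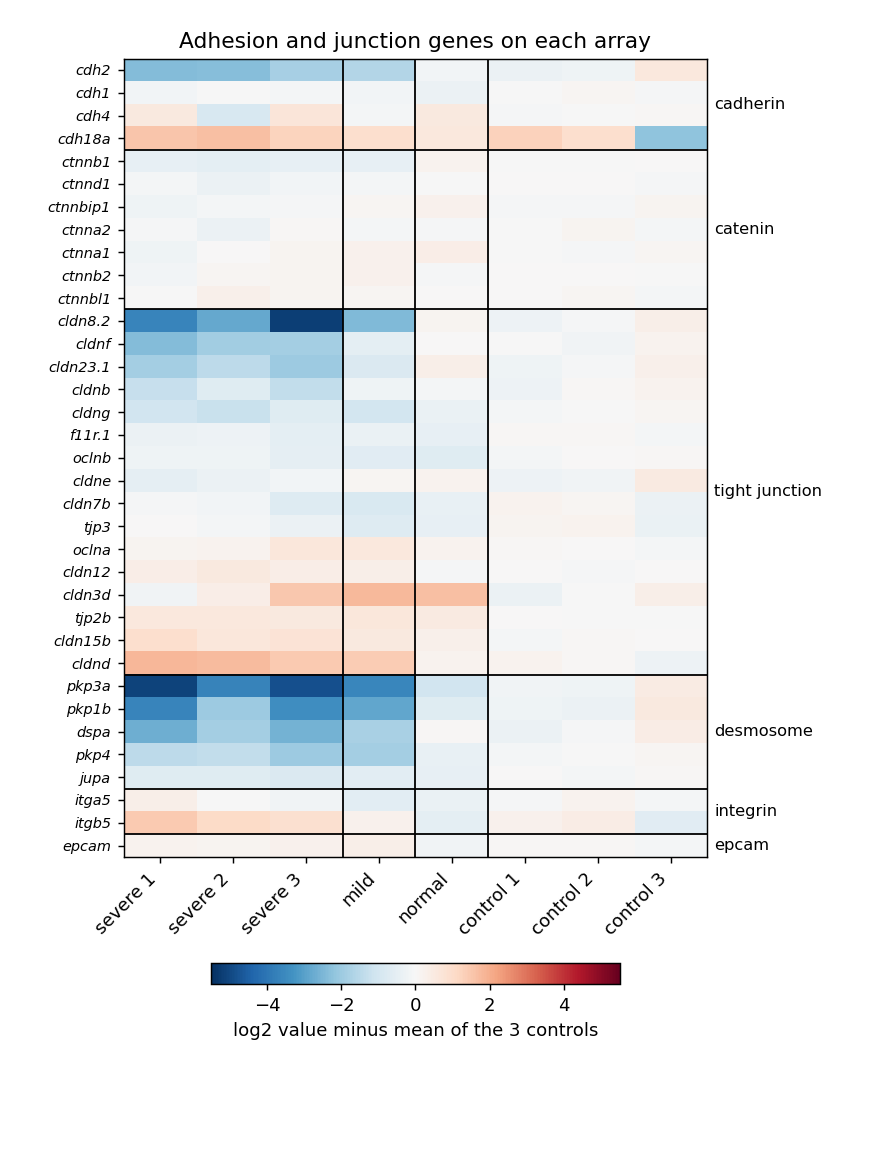
Log2 value of each tested adhesion gene (rows, grouped by type) on each array (columns) minus the mean of the 3 controls, as colour from blue (lower) to red (higher). The mild array shares the blue of the severe arrays in the desmosome genes and cdh2. The normal array stays near the controls for dspa, cdh2 and cldn8.2, and lies below every control for pkp3a, pkp1b, pkp4 and jupa.

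On the mild array, the plakophilin and desmoplakin genes were lower as well. Of 35 tested adhesion genes, 6 fell and 2 rose against control, where 8.04% of all tested genes fell and 5.81% rose. The array has no replicate, so the fit assumes that it varies like the severe and control arrays. The comparison shares its controls with the severe one, and its values are given for themselves. Those that fell were pkp3a, pkp1b, pkp4, dspa, cdh2 and the probe set that stands for cldng, and cldnd and tjp2b rose. The call of that cldng probe set was lost in 3 of 14 alternatives, and the gene is given no direction here either. The mild array lay below all 3 controls for 19 of the 35 genes and above them for 10, or 54.3% and 28.6%, beside 34.8% and 42.3% of all tested genes.

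For pkp3a the mild array read 6.15, against a control mean of 9.75 ± 0.38 (SD, n = 3), or 12.1-fold lower (limma adjusted p = 0.00549). For pkp1b it read 5.06, under background, so the gene was at least 7.05-fold lower than in control embryos (limma adjusted p = 0.022). The value of pkp4 was 8.82 on the mild array, 3.63-fold below the control mean of 10.68 ± 0.11 (SD, n = 3, limma adjusted p = 0.00465). The calls of pkp3a and pkp4 held in all alternatives in which each was tested. That of pkp1b was lost without control array 3 (limma adjusted p = 0.0525), and that of dspa without control array 2 (limma adjusted p = 0.0518). On the mild array dspa read 7.70 (log2 -1.79, limma adjusted p = 0.0208), and cdh2 read 7.86 (log2 -1.63, limma adjusted p = 0.029), a call lost in 4 of 14 alternatives. Plakoglobin's jupa read 11.05, a difference of -0.56 that did not pass (limma adjusted p = 0.053).

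The rise of cldnd on the mild array was 2.65-fold (12.80 against a control mean of 11.40 ± 0.26, SD, n = 3, limma adjusted p = 0.00729). It was lost when arrays were scaled on hybridisation controls (limma adjusted p = 0.101). The gene tjp2b read 10.90, a rise of 0.64 (limma adjusted p = 0.0313) lost in 7 of 14 alternatives. The claudins that fell deepest in severe embryos read 7.29 for cldn8.2 (log2 -2.43, limma adjusted p = 0.0592), 7.76 for cldnf (-0.54), 10.43 for cldn23.1 (-0.78) and 10.46 for cldnb (-0.22), none past the threshold. E-cadherin's cdh1 read 12.40 on the mild array (difference -0.15, 95% interval -0.50 to 0.20). With replicates 1 and 2 alone as severe and control arrays, or without severe array 3, more adhesion genes passed here in both directions. The shares of all tested genes in those fits are not given here. The count of higher genes was 1 without control array 1, without control array 2 or without severe array 2.

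On the normal array no adhesion gene passed against control, in either direction. Among all tested genes, 0.0323% fell (2 genes) and 0% rose by the same limma fit. With 1 array, a difference must be large to pass. Of the 35 genes, 14 lay below all 3 controls and 9 above them, or 40% and 25.7%, beside 31.5% and 30.5% of all tested genes. Desmoplakin's dspa read 9.54, within the control range, and cdh2 read 9.32, also within it. The other desmosome genes all lay below every control, among them pkp1b at 7.25, pkp4 at 10.27 and jupa at 11.15. Plakophilin 3 was the lowest by difference, with pkp3a at 8.68, below every control (log2 -1.07, 95% interval -2.30 to 0.16). The largest positive difference was 1.65 for cldn3d, at 9.94. With replicates 1 and 2 of severe and control alone, some adhesion genes passed in both directions. The share of all tested genes in that fit is not given here, so this is not read as a result about the adhesion genes.

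The comparison of severe with normal-looking embryos sets MO embryos of different shape against each other. The controls enter only its estimate of the spread. It shares the severe arrays with the comparison against control, and its normal side is 1 array. Of 35 adhesion genes, 10 were lower and 2 higher in severe embryos, where 10.1% of all tested genes were lower and 13% higher. The largest fall was in cldn8.2 (log2 -4.01, limma adjusted p = 0.0102). Next were pkp3a (log2 -3.46, limma adjusted p = 0.00697) and dspa (-2.44, limma adjusted p = 0.00741). Others that fell were pkp1b, cldnf, cldn23.1, cdh2, pkp4, cldnb and ctnnb1, by 2.34, 2.09, 2.07, 2.01, 1.19, 0.97 and 0.65 on the log2 scale. Of these, pkp1b, pkp4, cldnb and ctnnb1 lost the call in some alternatives, from 1 of 14 for pkp4 to 7 of 14 for ctnnb1.

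The higher pair was itgb5, at 10.56 ± 0.28 in severe embryos (SD, n = 3) and 8.88 on the normal array (log2 1.68, limma adjusted p = 0.0193), and cldnd, at 13.06 ± 0.20 (SD, n = 3) and 11.61 (log2 1.46, limma adjusted p = 0.00687). The call of itgb5 was lost when arrays were scaled on hybridisation controls (limma adjusted p = 0.0697). Plakoglobin and tjp2b did not differ past the threshold between these subtypes. For jupa the difference was -0.25 (95% interval -0.62 to 0.12), and for tjp2b 0.05 (95% interval -0.31 to 0.41). Both MO subtypes lay above control for tjp2b, at 10.82 ± 0.03 in severe embryos (SD, n = 3) and 10.77 on the normal array, beside 10.26 ± 0.02 in control embryos (SD, n = 3). With replicates 1 and 2 alone, more adhesion genes passed in both directions between severe and normal-looking embryos. Under scaling on hybridisation controls fewer passed, among the adhesion genes and among all tested genes. The share of all tested genes with replicates 1 and 2 alone is not given here, so this is not read as a result about the adhesion genes.

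The desmosome medians, each array set against the control mean, were -2.67, -1.87 and -2.62 on severe arrays, -1.86 on the mild array, -0.45 on the normal array and -0.18, -0.09 and 0.39 on control arrays. Every severe value and the mild value lay below those of the normal and control arrays. Catenin medians were -0.16, -0.11 and 0.05 on severe arrays, 0.10 on the mild array, 0.02 on the normal array and between -0.03 and 0.01 on control arrays. For tight junction genes they were -0.20, -0.19 and -0.42 on severe, -0.30 on the mild, 0.09 on the normal and between -0.05 and 0.05 on control arrays. Over all 6192 tested genes the medians were 0.17, 0.16 and 0.10 on severe, 0.08 on the mild and -0.02 on the normal array.

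Of the 62 adhesion genes, 27 did not pass the filter, and 15 of those were not above background on any array. They were 11 cadherins and protocadherins, 13 tight junction genes and 3 integrins. In a fit without the filter, 3 of the 27 passed. The share of all genes passing in that fit is not given here. The gene pcdh8 encodes paraxial protocadherin, a cadherin of the paraxial mesoderm involved in convergence movements. It lay between 2.08 and 3.99 on severe arrays, at 3.79 on the mild array, at 5.39 on the normal array and between 5.78 and 6.19 on control arrays. As all severe values were under background, it was at least 1.91-fold lower in severe than in control embryos (limma without the filter, adjusted p = 0.00357). The gene cldn11b lay between 2.61 and 4.46 on severe and between 5.79 and 6.30 on control arrays, at least 1.93-fold lower (limma without the filter, adjusted p = 0.00674). The third, cdh13, was under background on all 8 arrays, so no fold is given.

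Other genes of the adhesion machinery were counted on lists chosen for their known roles. Among all tested genes 16.7% fell and 23.8% rose in severe embryos, and the counts on these short lists are not read as a response of a list. Of 23 matrix ligand genes listed, 10 were measured and 3 tested. Of these lamb1a, which encodes the laminin beta 1 chain, fell, at 5.49 ± 1.32 in severe and 9.45 ± 0.36 in control embryos (SD, n = 3 each, limma adjusted p = 0.000845), with 2 of 3 severe arrays above background. Of 7 tested integrin adaptors, 2 rose in severe embryos and none fell: the focal adhesion kinase gene ptk2ab by 1.12 (limma adjusted p = 0.0157) and the paxillin gene pxna by 0.61 (limma adjusted p = 0.0136).

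Of 10 tested nectin, junction scaffold and polarity genes, 2 fell and 1 rose, where 16.7% of all tested genes fell and 23.8% rose. The tight junction scaffold gene magi1b read 6.21 ± 0.44 in severe and 9.66 ± 0.55 in control embryos (SD, n = 3 each), 11-fold lower (limma adjusted p = 0.000148). The paracingulin gene cgnl1 fell by 0.72 (limma adjusted p = 0.0104), and nectin3b, for an immunoglobulin-type adhesion molecule of adherens junctions, rose by 0.99 (limma adjusted p = 0.00212). The polarity genes prkci, llgl2 and pard6gb stood at -0.24, -0.09 and -0.02 without passing. Of 13 tested genes of cadherin trafficking and repression, 4 fell, of which snai1a fell least, and 1 rose (rab11ba). Snail, encoded by snai1a, is a repressor of E-cadherin, and read 11.42 ± 0.13 in severe and 12.04 ± 0.07 in control embryos (SD, n = 3 each, limma adjusted p = 0.00346).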

How the data were processed

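RNA of whole zebrafish embryos was hybridised to 8 Affymetrix arrays. The deposited table holds log2 signals, 1 per probe set and array. Per the submitters' processing notes these are MAS5 values (version not given), a method that leaves dim probe sets noisy. Once 2% are trimmed from both ends, the lowest average of the linear values on any array is 500.1. No detection calls were used here.

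Gene names came from the platform annotation. The 62 members' symbols were looked up by Entrez number in RefSeq, and 0 had changed. No genome, coordinates or sequences were used. Of 15617 probe sets, the 15502 that are not controls were filtered at the 40th percentile of the mean (log2 5.585), leaving 9301. The 4 groups were fitted together by limma 3.58.1 under R 4.3.3 (lmFit, then eBayes with a mean-variance trend), which left 4 residual degrees of freedom. The fit was tested on simulated data. Values per array are given for a core list, for the 8 largest called rises and falls in severe against control, and for the 3 largest in each other comparison. Values of other genes (cdh18a, cldn3d, cldng and the like) were chosen after they were seen. Members and lists were chosen with earlier results of these data known. The core genes tjp1a, itgav, itgb1a and itgb1b were not among the members. Some genes of the cadherin trafficking and repression list are not reported here by name.

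Alternatives covered scaling, the filter, the variance model, averaging a gene's probe sets, which arrays entered the fit (including replicates 1 and 2 only and single replicates left out) and a replicate block. Figures used matplotlib 3.10.9.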

Additional observations from a re-analysis of the deposited data

How the results depend on the processing

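In the severe comparison 11 of 18 called adhesion genes (the 5 desmosome genes, cdh2, cldn8.2, cldnf, cldn23.1, cldnb and cldnd) passed in every alternative in which each was tested, and so did 2 of 8 in the mild comparison and 7 of 12 between severe and normal-looking embryos. No called gene changed sign.

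The count of adhesion genes higher in severe than in control embryos was 5, and 1 with hybridisation control scaling, 3 with the mean of a gene's probe sets, and 3 to 5 when a replicate was left out. The count higher in mild embryos was 2. It was 0 with hybridisation control scaling, 1 without the filter, 1 without the trend, 1 with the mean of a gene's probe sets, 4 with replicates 1 and 2 only, and 1 to 4 when a replicate was left out. The count lower in mild embryos was 6. It was 3 with the mean of a gene's probe sets, 14 with replicates 1 and 2 only, and 4 to 10 when a replicate was left out. On the normal array replicates 1 and 2 only gave 2 higher and 5 lower in place of 0 and 0. Between severe and normal-looking embryos, the higher count of 2 was 1 with hybridisation control scaling and 8 with replicates 1 and 2 only, and the lower count of 10 was 6 with hybridisation control scaling. The shares of all tested genes with replicates 1 and 2 only are not given here, so those counts are not read as a result about the adhesion genes. The cause of these shifts was not tested.

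The median of the tested adhesion genes turned from -0.15 to 0.06 in the mild comparison under median centring, and from -0.05 to 0.03 in the normal one (0.0034 with the mean of a gene's probe sets). Between severe and normal-looking embryos it was 0.033 without severe replicate 2, in place of -0.19. That scaling moved the mild median of all genes from 0.08 to 0.30, and hybridisation control scaling moved it to -0.36.

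Same-numbered severe and control arrays deviated from their group means with correlations of 0.34, -0.07 and 0.34. Deviations of 3 arrays from their own mean depend on each other, so these values cannot decide whether the numbers pair the samples. Control array 2 correlated better with severe array 1 (0.38) than with its own number. A replicate block gave 6 higher and 14 lower adhesion genes. Dim probe sets limit pkp3a, pkp1b and cldn8.2, whose severe arrays reach background.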
